A study of Arabidopsis thaliana with 9 samples.

Results

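The comparison set 3 arrays of wild-type Arabidopsis thaliana seedlings kept for 8 d on hormones against 3 arrays of seedlings kept for 2 d on the same hormones, 6 of the 9 arrays of the series, over all 10343 probe sets of the deposited table. The arrays were chosen by their titles, and RNA came from whole seedlings. All seedlings were 4 d old when they were moved to Murashige and Skoog medium, and both groups carried the same agents, 2.26 µM 2,4-D, a synthetic auxin, and 0.46 µM kinetin, a cytokinin. The comparison therefore describes what changed after the first response to the hormones. The 3 arrays at 0 d, taken before the hormones, were used for the estimate of spread and are given below as levels. Time on hormones and age of the seedlings cannot be told apart. Whether the 3 arrays of a group stand for separate cultures is not stated in the labels, and the spread behind the p-values may be technical.

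A high auxin and cytokinin supply turns differentiated plant tissue towards callus, a mass of dividing cells that makes little use of photosynthesis. Chloroplasts carry their own small genome, which encodes part of each photosynthetic complex and is read by a plastid-encoded and a nuclear-encoded RNA polymerase, while the remaining subunits, the assembly factors and the enzymes of chlorophyll synthesis are nuclear genes. Plants short of oxygen switch on a conserved set of genes for fermentation and low-oxygen signalling, and dense tissue can be short of oxygen without flooding.

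The 6 arrays had median signals from 501 to 546, and all 9 had a 3′ to 5′ log2 difference between -0.14 and 0.20 for the glyceraldehyde dehydrogenase and ubiquitin control probe sets. Array 2 d replicate 1 stood apart from the other 2 d arrays. Its log2 correlation with the 8 d arrays was 0.83 to 0.87, against 0.77 to 0.82 for 2 d replicates 2 and 3, and limma gave it an array weight of 0.27. Array 8 d replicate 3 lay nearest to the 2 d arrays, with a weight of 0.51. Of all probe sets 99.8% had an F test p under 0.05 across the 3 time points, so the table looks selected on these arrays and the adjusted p-values are too small. Both shoot and root were represented, with the light-harvesting gene LHCB4.1 at 14712 ± 850 and the root gene PYK10 at 13125 ± 510 at 2 d (SD, n = 3).

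A probe set was called when its adjusted p in limma was under 0.05 and its log2 change, 8 d minus 2 d, was at least 1 in size. By that rule 2285 probe sets (22.1%) were called, 761 higher at 8 d (7.36%) and 1524 lower (14.7%). Among the 5485 named genes, 7.8% were called higher and 13.7% lower, and their median change was 0.29. The probe sets called lower had a median signal of 974 at 2 d and 331 at 8 d, against 926 at 0 d. Those called higher had a median of 258 at 2 d and 705 at 8 d, against 198 at 0 d. Without 2 d replicate 1 there were 2607 calls, and without 8 d replicate 3 there were 2440. In counts of genes below, fell and rose mean called lower and called higher.

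Transcripts of the plastid genome were lower at 8 d across nearly every complex it encodes. Of 59 measured plastid genes 31 fell and none rose, against 13.7% of named genes called lower, with a median change of -1.03. All 59 values were below 0. The count was 34 without 2 d replicate 1 and 31 without 8 d replicate 3. In whole seedlings, fewer cells of a type and less RNA per cell cannot be told apart, and MAS5 signals are relative to the other transcripts on the same array. Plastid RNAs carry few poly(A) tails, and how the labelling reaction primed them was not tested.

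The largest fall of a plastid gene was that of psbD, which encodes the D2 reaction centre protein of photosystem II. Its signal was 1180, 1708 and 1505 at 2 d and 349, 361 and 411 at 8 d, a log2 change of -1.96 (SE 0.16, limma adjusted p = 7e-06). The 2 d and 8 d arrays did not overlap, and the 0 d arrays, at 1169, 1537 and 1151, lay with those of 2 d. Its neighbour psbC, for the antenna protein CP43, went from 3514 ± 223 to 1071 ± 133, a change of -1.72 (SE 0.13). Of 12 photosystem II genes 7 fell, and the smallest change was that of psbJ, at -0.44, which was not called. Of 5 photosystem I genes 4 fell, from psaA at -1.27 to psaC at -1.03, and psaB was at -0.62. The call of psaC ended without 2 d replicate 3 (-0.95), without 8 d replicate 3 (-0.90) and, by a small margin, without 2 d replicate 2.

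The plastid genes for the ATP synthase split between their transcription units. The genes atpA, atpF, atpH and atpI, which are transcribed together, all fell. The signal of atpA was 2392, 2902 and 3209 at 2 d and 702, 699 and 901 at 8 d, a change of -1.89 (SE 0.16, limma adjusted p = 7.4e-06). Every 8 d array lay well below the lowest 2 d array. By contrast atpB and atpE, which form a second transcription unit, were at -0.68 and -0.66 and were not called, although their 8 d signals, 10322 ± 675 and 9362 ± 202, lay below every 2 d array. No test of the difference between the units was run.

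The NDH complex passes electrons back into the chain around photosystem I. Of 7 measured plastid ndh genes 5 fell, led by ndhH at -1.95 (SE 0.13) and ndhE at -1.90 (SE 0.31), while ndhI was at -0.71 and ndhC at -0.59. The signal of ndhH was 918, 1018 and 1197 at 2 d and 247, 296 and 265 at 8 d, with no overlap. Among the 4 cytochrome b6f genes petG fell by 1.57 and petA, for cytochrome f, fell by 1.55, while petL at -0.98 and petB at -0.71 were not called. The rbcL gene for the large subunit of Rubisco fell from 1689 ± 243 to 576 ± 96.7, a change of -1.55 (SE 0.14).

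Calls were fewer among genes for plastid gene expression. Of 13 plastid ribosomal protein genes 5 fell, and the list's median was -0.73. None of the 4 subunits of the plastid-encoded RNA polymerase was called, with rpoC2 at -0.76, rpoA at -0.62, rpoC1 at -0.48 and rpoB at -0.35. Of the 4, 3 had an adjusted p under 0.05 in limma, as had 76.5% of all probe sets. The rpoB signals were low, 54.9, 46.5 and 59.8 at 2 d against 34.3, 49.5 and 43.1 at 8 d, and the groups overlapped. The 7 measured genes of the ribosomal cluster from rps19 to rpoA, again a shared transcription unit, spanned only -0.47 to -0.73 and none was called. The ribosomal genes that fell lie elsewhere on the plastid genome, among them rps16 at -1.30, rps2 beside the atp genes at -1.27 and rps4 at -1.12. The call of rps16 ended with 64 added to each signal (-0.95), and that of rps4 ended by a small margin after quantile normalization.

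**Figure D1:**
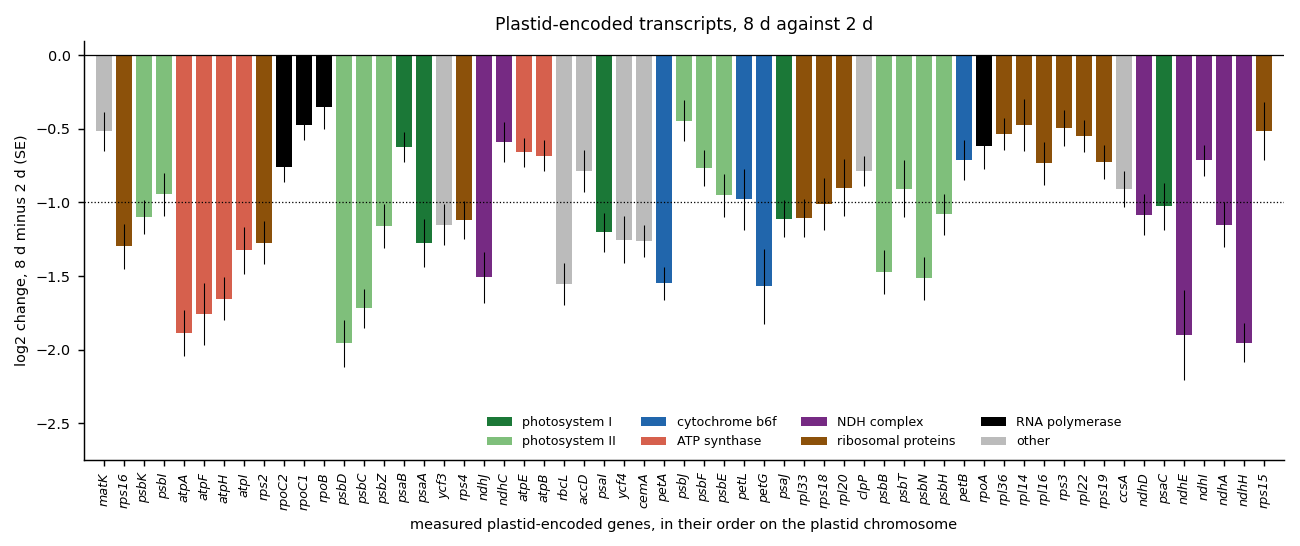
Log2 change between 8 d and 2 d (bars, with the SE from limma, 3 arrays per group) for the 59 measured plastid-encoded genes, in their order on the plastid chromosome and coloured by complex. The dotted line marks the fold threshold of -1, which the atpA to atpI stretch and psbD pass while the rps19 to rpoA stretch, at -0.47 to -0.73, does not.

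Neighbouring genes had similar values in several other transcription units. The 4 genes psaI, ycf4, cemA and petA were all called lower, between -1.20 and -1.55. None of psbE, psbF and psbJ was called, though all were below 0, at -0.95 to -0.44. The first of these was called after median centring (-1.05) and without 2 d replicate 1 (-1.11). Units also split, as in psbB at -1.48, psbT at -0.91, psbH at -1.08 and petB at -0.71, where psbH was not called without 2 d replicate 3 (-0.99). Signal level moved with the size of the change. The 7 plastid genes with a 2 d signal above 8000 had a median change of -0.71 with 1 call, psbK at -1.10 (-0.83 and not called after quantile normalization), and the other 52 had a median of -1.09 with 30 calls. Of the 153 other probe sets above 8000, 63 were called lower, with a median of -0.84 and changes down to -3.20. The part of saturation of bright probe sets was not tested.

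Nuclear genes for the same NDH complex fell too. CRR factors assemble the complex or edit its transcripts. All 7 measured subunits and CRR factors were called lower, with a median of -1.66, beside 13.7% of named genes called lower. This group was gathered by gene name after the annotation was seen. NdhN, a subunit, read 1341, 2021 and 2199 at 2 d and 175, 256 and 398 at 8 d, a change of -2.79 (SE 0.27, limma adjusted p = 1.6e-05). NdhL read 1588, 2099 and 2506 at 2 d and 246, 319 and 461 at 8 d, a change of -2.62 (SE 0.22). In both genes 2 d replicate 1 was the lowest 2 d array and 8 d replicate 3 the highest 8 d array, and the groups did not overlap.

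CRR42, an assembly factor of the NDH complex, fell most, from 476 ± 48.5 to 68 ± 22, a change of -2.85 (SE 0.20). NdhS, the subunit that binds ferredoxin, fell by 1.66. CRR21 and CRR28 are pentatricopeptide repeat proteins of the kind that edits plastid transcripts, and they fell by 1.50 and 1.16, though CRR28 was at -0.89 after quantile normalization and at -0.61 with 64 added to each signal, and was not called in either. CRR41 fell by 1.03, a call that ended with array weights (-0.93), without 2 d replicate 3 (-0.94) and without 8 d replicate 3 (-0.92). Cpn60beta4, a chaperonin subunit that folds the plastid-encoded NdhH, went from 581, 689 and 721 at 2 d to 129, 149 and 153 at 8 d. Its change of -2.20 (SE 0.12, limma adjusted p = 1.8e-06) had little spread in either group. Its relative Cpn60beta3 read 894, 579 and 681 at 2 d and 1323, 1424 and 1551 at 8 d, a rise of 1.02 (SE 0.15), a call that ended after median centring (0.92), without 2 d replicate 2 (0.87) or 3 (0.99) and without 8 d replicate 3 (0.96). Cpn60beta2 fell by 1.01, a call that ended without 2 d replicate 1 (-0.82) or 8 d replicate 2 (-0.97).

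Photorespiration recycles the product of Rubisco's reaction with oxygen. All 4 measured genes of that list fell, with a median of -1.66, beside 13.7% of named genes called lower. LrgB, the plastid transporter of glycolate and glycerate, read 3343, 3932 and 4475 at 2 d and 413, 633 and 716 at 8 d. Its change of -2.77 (SE 0.19, limma adjusted p = 3.6e-06) was the largest of the group, and the 2 groups of arrays lay far apart. HPR, the peroxisomal hydroxypyruvate reductase, went from 10045 ± 1909 to 3108 ± 1034, a change of -1.73 (SE 0.23). AT1G11860 fell by 1.58 and AT1G80380 by 1.41. At 0 d these 4 genes had means of 4538, 9492, 9739 and 2735, close to their 2 d means of 3917, 10045, 8911 and 2769.

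Chlorophyll synthesis genes fell at several steps. Of 8 measured members 6 were called lower, beside 13.7% of named genes, and GSA1 at -0.93 and PORB at -0.96 were not. The list's median was -1.41. Without 2 d replicate 3 or 8 d replicate 3 all 8 were called. CHLI2, a subunit of the magnesium chelatase that commits porphyrin to chlorophyll, read 770, 875 and 863 at 2 d and 166, 181 and 210 at 8 d, a change of -2.18 (SE 0.12, limma adjusted p = 1.8e-06). HEME2 and HEME1, uroporphyrinogen decarboxylases of the shared heme branch, fell by 1.75 (SE 0.16) and 1.59 (SE 0.14). HEMB1, which acts earlier, fell by 1.22. AT1G74470, the geranylgeranyl reductase that supplies the chlorophyll tail, fell by 1.23, though only to -0.96 after quantile normalization, where it was not called. LIL3:1 and LIL3:2, light-harvesting-like proteins that hold that reductase in the membrane, fell by 2.04 (SE 0.15) and 1.35 (SE 0.14). LYC, the lycopene cyclase of carotenoid synthesis, fell by 1.06 and was not called without 2 d replicate 2 (-0.99) or 3 (-0.92).

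Nuclear genes of the photosystem and light-harvesting list were lower as well. Of 10 measured, 8 fell, beside 13.7% of named genes called lower. The list's median was -1.28, with no change beyond -1.84. The count of calls was 10 without 2 d replicate 1 and 5 after quantile normalization. The list includes 2 genes of neither kind, ATPC1 of the ATP synthase at -1.03 and AT4G01150 at -1.30. AT4G01150 is counted again among the thylakoid genes below. PSB27, a lumenal factor of photosystem II repair, read 7084, 7331 and 8629 at 2 d and 1925, 2046 and 2461 at 8 d, a change of -1.84 (SE 0.12, limma adjusted p = 3.2e-06). The light-harvesting gene LHCB4.3 had a different course. Its signal was 2259 ± 182 at 0 d, 374 ± 32.2 at 2 d and 125 ± 17 at 8 d, so that the change of -1.59 (SE 0.13) came on top of a lower 2 d level, while its relatives LHCB4.1 and LHCB4.2 stood at 14712 ± 850 and 11285 ± 1917 at 2 d and fell by 1.25 and 1.39, LHCB4.1 to only -0.94 and not called after quantile normalization.

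Of 10 named thylakoid shaping and assembly genes, 8 fell, with a median of -1.24, beside 13.7% of named genes called lower. PGRL1B, of cyclic electron flow, fell by 1.76 (SE 0.15). The grana-curving proteins AT1G52220 (CURT1C) and AT4G01150 (CURT1A) fell by 1.71 and 1.30, while AT4G38100 (CURT1D) read 1323, 915 and 733 at 2 d and 1031, 1128 and 1059 at 8 d, with overlap and a change of 0.16 (SE 0.18). LPA19, LPA2 and LPA1, which help to build photosystem II, fell by 1.19, 1.14 and 1.09, and LPA66, a transcript editing factor, was at -0.42. With 64 added to each signal LPA19 and LPA1 were at -0.99 and -0.97 and not called. In the Calvin cycle 3 of 4 genes fell, beside the same share of named genes. PRK read 7757, 10175 and 10644 at 2 d and 2189, 2920 and 4498 at 8 d, a change of -1.62 (SE 0.23). RCA, the activase of Rubisco, was at -0.67.

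**Figure D2:**
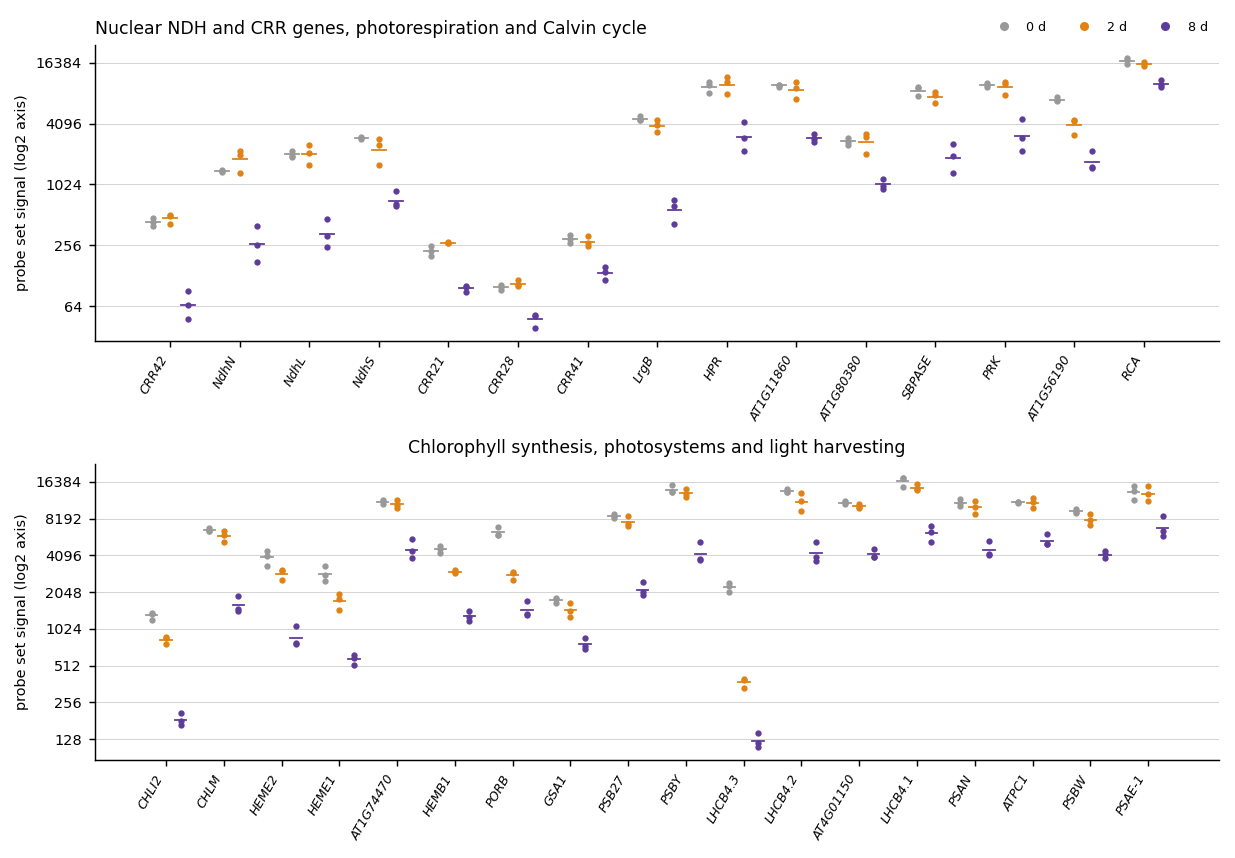
Probe set signal on each array (points, log2 axis) at 0 d (grey), 2 d (orange) and 8 d (violet) for nuclear genes of the NDH complex, photorespiration, the Calvin cycle, chlorophyll synthesis and the photosystem list, with bars at the geometric mean of 3 arrays. All 8 d arrays lie below all 2 d arrays in every gene shown, and in most the 0 d and 2 d arrays lie close together, with LHCB4.3, PORB and AT1G56190 among the exceptions.

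Thioredoxins are small redox proteins that switch enzymes on and off. Of 8 measured, 5 fell and none rose, beside 13.7% of named genes called lower and 7.8% called higher. TRXF2, an f-type plastid thioredoxin that activates Calvin cycle enzymes in the light, read 1546, 1973 and 2467 at 2 d and 446, 411 and 559 at 8 d, a change of -2.07 (SE 0.17, limma adjusted p = 7.3e-06). The plastid members ty2, NTRC, THX and ATHM2 fell, at -1.86, -1.57, -1.53 and -1.14, and ATHM2 was not called after quantile normalization (-0.95). The 8 d arrays of ty2 were spread, at 435, 757 and 1221. TO1 and TO2, of the mitochondrial o type, were at -0.02 (SE 0.09) and 0.47 (SE 0.11), and neither was called. TY1 is a plastid y-type protein like ty2, and it went the other way, at 0.57 (SE 0.14), short of the fold threshold. The TY1 signals were 276, 195 and 231 at 2 d and 347, 339 and 342 at 8 d, with no overlap.

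Genes of the low-oxygen response rose together. Of the 48 genes of a core hypoxia list 15 were measured, and 12 of these rose and none fell, against 7.8% of named genes called higher, with a median change of 1.94. The list was drawn up with earlier results of these data known, among them those of the largest 3, so the count is not independent of the data. Leaving out single arrays gave 11 to 13 calls. Array 8 d replicate 1 was the highest 8 d array in all of these genes but AT3G10020.

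PDC2 encodes a pyruvate decarboxylase, the entry step of ethanol fermentation. It read 682, 469 and 332 at 2 d and 1660, 1270 and 1184 at 8 d, a rise of 1.52 (SE 0.24, limma adjusted p = 0.00033). The groups did not overlap, and the 0 d arrays, at 429, 457 and 342, lay within the range of 2 d. AT3G10040 (HRA1), a transcription factor that restrains the hypoxia response, read 100, 61.9 and 95.7 at 2 d and 505, 302 and 222 at 8 d, a rise of 1.94 (SE 0.29). CML38, a calmodulin-like calcium sensor, rose by 1.96 (SE 0.37) from 48.6 ± 23.9 to 190 ± 86, but its 0 d level had been higher still, at 316 ± 51.8. Its fold rests on low signals at 2 d and is imprecise.

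The other members of the list are known here by locus only. AT1G19530 read 115, 84.7 and 146 at 2 d and 3551, 2210 and 2586 at 8 d, a rise of 4.60 (SE 0.21, limma adjusted p = 8e-07), with 865 ± 63.6 at 0 d. AT4G27450 read 791, 1453 and 1472 at 2 d and 8952, 6187 and 5047 at 8 d, a rise of 2.46 (SE 0.25). For AT4G10270 the 2 d arrays read 209, 241 and 200 and the 8 d arrays 2595, 1597 and 1124, a rise of 2.95 (SE 0.25). These 3 genes had their lowest level at 2 d and their highest at 8 d, with no overlap.

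AT4G33560 rose by 4.78 (SE 0.35) and AT2G17850 by 3.87 (SE 0.34), from 2 d signals of 48.8 ± 21.6 and 65.9 ± 15.3 that make both folds imprecise. AT3G27220, AT1G72940, AT5G44730 and AT3G03270 rose by 2.04, 1.56, 1.34 and 1.23, the last only to 0.96 without 8 d replicate 1, where it was not called. The 3 members that were not called, AT4G17670, AT1G26270 and AT3G10020, were at 0.77, 0.62 and 0.38. Over the 15 genes the median of the mean signals was 325 at 0 d, 217 at 2 d and 993 at 8 d.

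**Figure D3:**
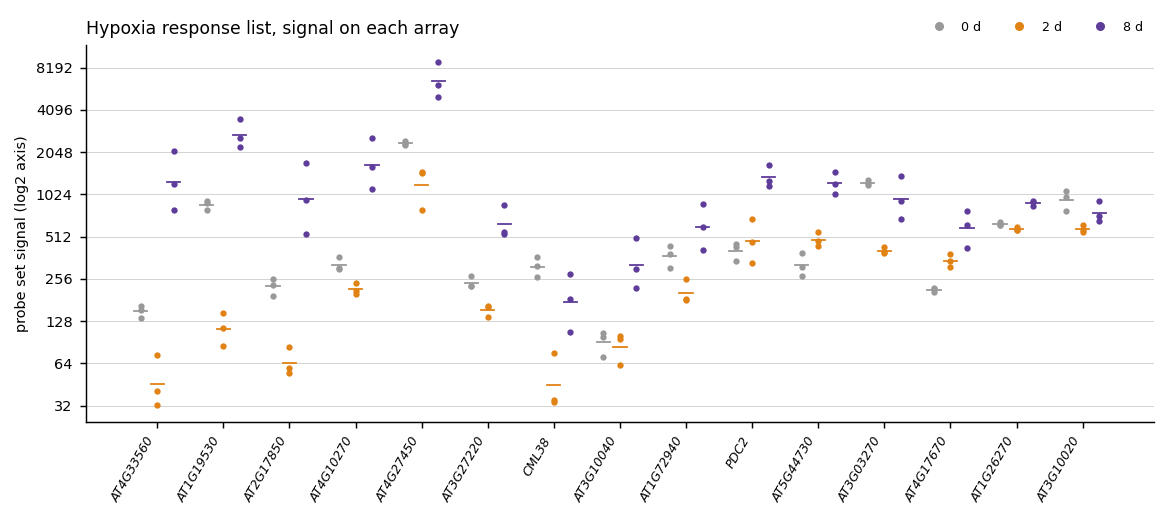
Probe set signal on each array (points, log2 axis) for the 15 measured genes of the hypoxia response list at 0 d (grey), 2 d (orange) and 8 d (violet), ordered by the change from 2 d to 8 d, with bars at the geometric mean of 3 arrays. The 8 d arrays lie above the 2 d arrays in every gene shown, and in AT3G03270, CML38 and AT3G10020 the 0 d mean lies above that of 8 d.

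The few measured genes of leaf identity and stomata fell, with only 2 of the 22 genes of the stomatal list measured. STOMAGEN, a peptide from the leaf interior that promotes stomata, read 263, 431 and 514 at 2 d and 37.0, 9.40 and 56.8 at 8 d, a change of -3.84 (SE 0.53, limma adjusted p = 0.00015). The value at 8 d replicate 2 was the lowest of that array, and the fold is imprecise. FMA, a transcription factor of guard cell fate, fell by 1.40, and was at -0.84 and not called with 64 added to each signal. The only YABBY genes measured, YAB3 and YAB5, which give leaves their lower side and blade, fell by 1.69 (SE 0.13) and 1.53 (SE 0.16). YAB3 read 397, 503 and 427 at 2 d and 125, 136 and 151 at 8 d, with no overlap. HYH, a transcription factor of light responses, fell by 1.24 (SE 0.12), or -0.98 and not called with 64 added. Of 3 measured root and root hair genes none was called. PYK10 was at -0.49 (SE 0.09), and EXPA7 and AT1G30870 of root hairs were both at -0.10 with overlapping arrays. Their levels at 2 d were already far below those of 0 d, at 103 ± 36.3 against 537 ± 110 for EXPA7 and 193 ± 16.6 against 1953 ± 37.3 for AT1G30870. GSO1, a receptor kinase of the root endodermis from the suberin and Casparian strip list, fell by 1.11 from a low signal of 94.5 ± 24.1, and was not called without 2 d replicate 3 (-0.96), after quantile normalization (-0.79) or with 64 added to each signal (-0.56). No gene of the xylem, cuticle, pollen or seed lists was measured with a name, and the part of cell composition in these results was not tested.

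Hormone genes moved singly, in both directions. IAA30, an auxin signalling repressor of the Aux/IAA family, read 667, 350 and 398 at 2 d and 1564, 1649 and 1737 at 8 d, and was at 60.4 ± 9.44 at 0 d. The rise of 1.86 (SE 0.22) put it highest at 8 d. IAA18, the other Aux/IAA gene measured, fell by 1.07, from 776, 846 and 770 to 336, 381 and 428, and was not called without 8 d replicate 1 (-0.98) or with 64 added to each signal (-0.96). GH3.3, an enzyme that inactivates auxin by conjugation, had 10012, 10212 and 8316 at 2 d and 8716, 9252 and 8316 at 8 d, with overlap and a change of -0.11 (SE 0.14). Its relative GH3.17 rose by 1.23, from 914, 893 and 1048 to 2548, 1747 and 2500. GH3.9 fell by 1.10 from a low signal of 96.2 ± 25.3, a call that ended without 2 d replicate 3 (-0.91) or 8 d replicate 2 (-0.98), after quantile normalization (-0.82) and with 64 added (-0.56). The listed gene AT1G14130 rose by 1.10 and was not called after hybridisation-control centring (0.98), with 64 added (0.87) or, by a small margin, with array weights. RR16, a type-A regulator that damps cytokinin signalling, went from 139, 125 and 86.8 at 2 d to 40.4, 38.1 and 20.1 at 8 d, a change of -1.87 (SE 0.26), with 273 ± 34 at 0 d. The size rests on low 8 d signals, and with 64 added to each signal RR16 was at -0.90 and not called. The cytokinin glucosyltransferases UGT76C1 and UGT76C2 were at -0.48 and 0.69 and were not called. The gibberellin receptors GID1A and GID1B were at 0.67 and 0.93 and were not called either.

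Counts of calls say little for the genes of growth and division. None of 3 DNA replication genes and none of 4 mitosis genes was called, numbers too small to set against the 22.1% of all probe sets, and TOPII at 0.51, AUR3 at 0.57 and ICU2 at 0.67 had an unadjusted p under 0.05. TOPII, the topoisomerase of dividing cells, had 0 d, 2 d and 8 d means of 120, 621 and 891. Of 10 ribosome biogenesis genes AT3G51270 was called higher, at 1.01 (SE 0.11), beside 7.8% of named genes, and the rest were at 0.04 to 0.88. The list median was 0.69, against 0.29 for named genes, and 9 of the 10 had an unadjusted p under 0.05. That single call ended after median centring (0.91) and without 2 d replicate 2 or 3 or 8 d replicate 2 or 3 (0.96 to 0.99), and without 2 d replicate 1 the list had 3 calls. No call was made by limma among 5 RNA polymerase II subunits, 8 ubiquitin-specific proteases and 9 ATG8 autophagy genes, of which 4, 4 and 6 had an unadjusted p under 0.05. Of all probe sets 76.5% had even an adjusted p under 0.05 in limma, so such counts do not set these groups apart.

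Cell wall genes changed member by member. Of named genes 13.7% were called lower and 7.8% higher, and no wall family was tested against these shares. Among 10 expansins, which loosen walls, EXPA15 and EXPA9 rose by 1.16 and 1.13, and EXPA16 and EXPA8 fell by 2.51 and 1.90. EXPA9 read 538, 489 and 493 at 2 d and 1130, 1010 and 1179 at 8 d, against 1087, 956 and 1087 at 0 d. The 8 d and 0 d arrays overlapped, and both lay above the 2 d arrays. EXPA16 had 232, 283 and 343 at 2 d and 87.0, 42.6 and 32.8 at 8 d. In the xyloglucan endotransglucosylase list XTH32, XTH33 and XTH16 fell, at -1.55, -1.26 and -1.07, and XTH20 rose by 2.04 (SE 0.45). With 64 added XTH33 and XTH16 were at -0.92 and -0.82 and not called. The XTH20 arrays were spread, at 361, 159 and 148 at 2 d and 1228, 1188 and 408 at 8 d.

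GH9B13, a cellulase-family enzyme, was the only member called among 6 of its family. It read 1033, 800 and 1299 at 2 d and 5059, 3854 and 3980 at 8 d, a rise of 2.06 (SE 0.18, limma adjusted p = 9.3e-06), from 253 ± 26.7 at 0 d. TBL proteins add acetyl groups to wall polymers. Of 10 measured, TBL39 rose by 1.49 and TBL36 by 1.11, and TBL25, TBL45 and TBL34 fell, at -1.67, -1.17 and -1.07, and TBL34, with a low signal, was not called without 8 d replicate 3 (-0.83), after quantile normalization (-0.79) or with 64 added (-0.56). TBL36 had reached 2059 ± 164 at 2 d from 178 ± 6.36 at 0 d and stood at 5801, 3998 and 3789 at 8 d. Without 8 d replicate 1 its change was 0.92 and it was not called. NET4B and NET1A, which tie actin filaments to membranes, rose by 1.01 and 1.07, and both calls ended after median centring (0.91 and 0.97) and without 2 d replicate 2 (0.97 and 0.96). That of NET4B also ended without 2 d replicate 1 (0.99) or 8 d replicate 3 (0.90).

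**Figure D4:**
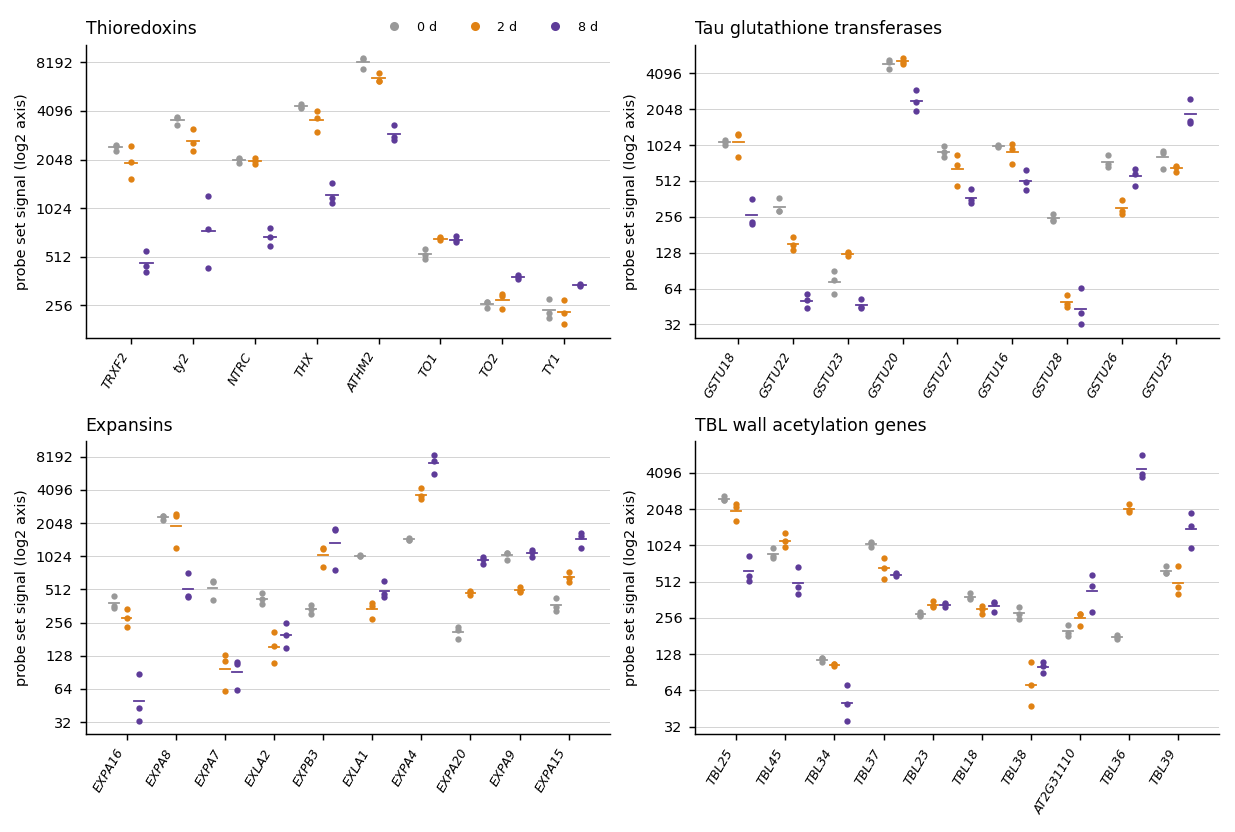
Probe set signal on each array (points, log2 axis) at 0 d (grey), 2 d (orange) and 8 d (violet) for 4 gene families, ordered within each by the change from 2 d to 8 d, with bars at the geometric mean of 3 arrays. Members of one family moved in opposite directions between 2 d and 8 d among the glutathione transferases, expansins and TBL genes, and among the thioredoxins 5 fell and 3 were not called.

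Transport and detoxification genes also split within families, which were not tested against the 13.7% of named genes called lower and 7.8% called higher. Of 4 SWEET sugar transporters 3 fell. SWEET2, of the vacuole membrane, read 1083, 1709 and 1754 at 2 d and 199, 298 and 418 at 8 d, a change of -2.35 (SE 0.26). SAG29 (SWEET15) had mean signals of 141 ± 12.8 at 0 d, 1753 ± 203 at 2 d and 694 ± 127 at 8 d, a change of -1.34 (SE 0.15). SWEET11, of phloem loading, fell by 1.08 and was not called without 8 d replicate 1 (-0.89). Among 6 NPF transporters AT1G59740 (NPF4.3) rose by 2.52 (SE 0.16), reading 875, 689 and 834 at 2 d and 5376, 4870 and 3620 at 8 d. AT1G68570 (NPF3.1), AT3G21670 (NPF6.4) and AT2G26690 (NPF6.2) fell by 2.53, 1.69 and 1.05, and the last was not called without 2 d replicate 2 or 3 (both -0.93) or without 8 d replicate 1 (-0.98).

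Of 9 tau-class glutathione transferases, which join glutathione to foreign or toxic molecules, 4 fell and GSTU25 rose. GSTU18 read 814, 1256 and 1239 at 2 d and 222, 231 and 364 at 8 d, a change of -2.03 (SE 0.21). GSTU22, GSTU23 and GSTU20, which are near neighbours on chromosome 1, fell, at -1.58, -1.42 and -1.09, the last to -0.95 and not called without 8 d replicate 1 or after quantile normalization. The first 2 had low signals and were at -0.91 and -0.77 and not called with 64 added. GSTU25 and GSTU26, adjacent genes elsewhere on that chromosome, were at 1.50 and 0.89, and only GSTU25 was called. Probes shared between such close relatives were not looked at. Of 22 UGT glycosyltransferases 6 fell and UGT73B4 rose by 2.95 (SE 0.23), from 148, 82.3 and 95.5 at 2 d to 711, 728 and 1036 at 8 d. After 64 was added to each signal the UGT list had 2 calls. Beside these families, 13.7% of named genes were called lower and 7.8% higher. CYP71B35, CYP71B5 and CYP71B34 fell, at -1.56, -1.55 and -1.20, among 4 members of their cytochrome P450 subfamily, and with 64 added CYP71B35 and CYP71B34 were at -0.85 and -0.95 and not called. Of 3 flavonoid genes CHIL and UGT78D1 fell by 1.74 and 1.61. Of 2 glucosinolate genes BCAT4, which starts the lengthening of methionine, rose by 1.21 and AT2G31790 fell by 1.26.

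**Figure D5:**
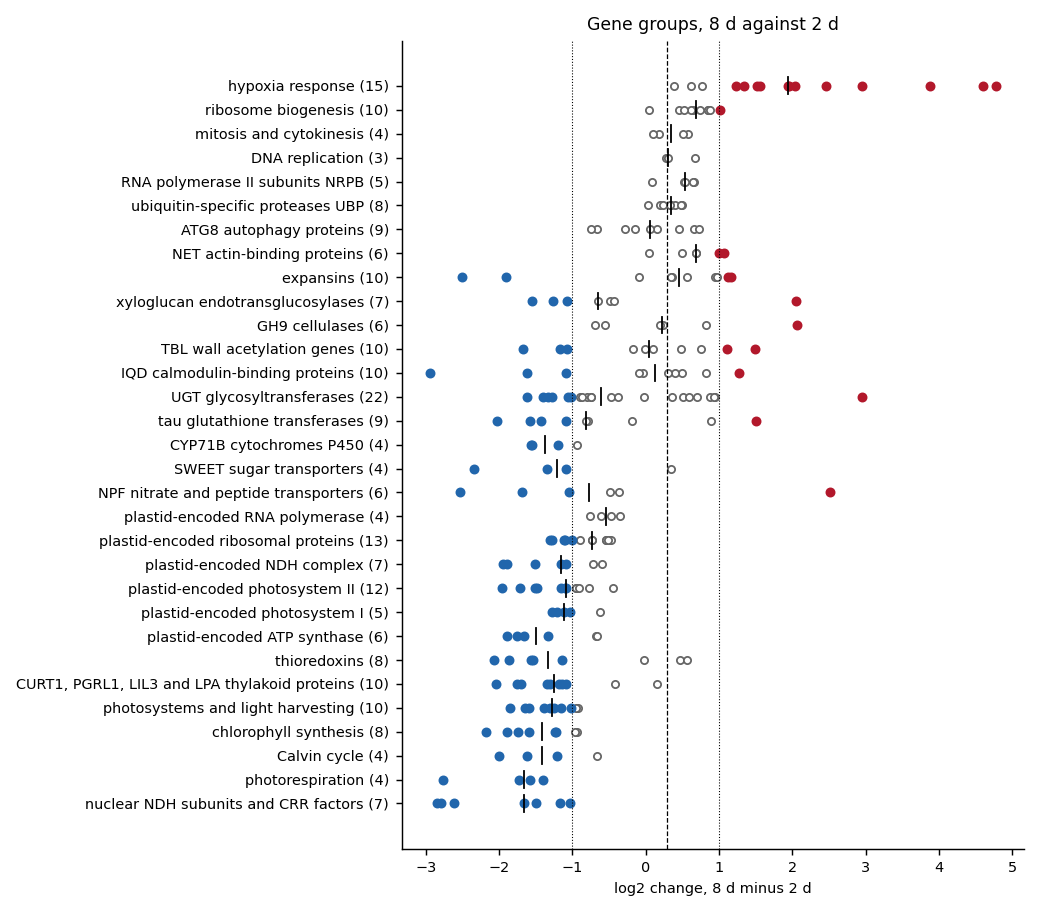
Log2 change between 8 d and 2 d for each measured member (points) of 31 gene groups, with the number measured in brackets, filled red where called higher, filled blue where called lower and open where not called. Black bars are group medians, the dashed line is the median of all named genes at 0.29 and the dotted lines mark the fold threshold, and the hypoxia list has only calls to the right and the chloroplast groups only calls to the left.

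Most of the largest changes in genes whose higher group lay above the median signal were in genes known by locus only. AT5G54370 rose most, by 6.54 (SE 0.29, limma adjusted p = 5.6e-07). It read 1743, 2057 and 1632 at 0 d, 66.9, 37.7 and 33.6 at 2 d and 4622, 2752 and 5402 at 8 d, so the 2 d arrays were the low ones and the fold is imprecise. AT4G38410 was higher at each later time, with 153, 144 and 202 at 0 d, 520, 478 and 481 at 2 d and 5328, 4759 and 5485 at 8 d, a rise of 3.39 (SE 0.13). AT1G56680 read 368, 368 and 445 at 2 d and 3737, 3253 and 5367 at 8 d, a rise of 3.36 (SE 0.17). The remaining members of the 12 largest rises, beside 4 hypoxia genes, were AT4G26880, AT1G52050, AT5G14020, AT5G60630 and AT5G25490, at 3.09 to 3.48.

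Among genes so chosen, with arrays that did not overlap, the largest fall was that of AT5G48490, at 2248, 3796 and 4651 at 2 d and 147, 187 and 495 at 8 d, a change of -3.83 (SE 0.40, limma adjusted p = 2.4e-05). AT1G33811 read 1304, 1152 and 1274 at 2 d and 103, 114 and 166 at 8 d, a change of -3.31 (SE 0.16), and AT1G04800 fell by 3.26 (SE 0.13). In these 3 genes the 0 d means, 3115, 1279 and 1953, were on the side of the 2 d level. The other 9 of the 12 largest falls, from AT2G36145 at -3.42 to AT5G45950 at -2.87, had 8 d means of 80.8 to 360.

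Among genes with a symbol, chosen after the values were seen as the 15 largest rises and 15 largest falls above that signal, several belonged to no list above. NDB4, an alternative NADH dehydrogenase of mitochondria, read 433, 176 and 114 at 2 d and 1489, 1481 and 497 at 8 d, a rise of 2.33 (SE 0.49). EEL, a transcription factor known from late seed development, read 282, 269 and 308 at 2 d and 1207, 1066 and 1377 at 8 d, a rise of 2.08 (SE 0.17). DI21, named for induction by drought, went from 1930 ± 120 to 6086 ± 144, a rise of 1.66 (SE 0.09), and the dehydrin COR47 from 2087 ± 64.2 to 6065 ± 1555. SPT, a transcription factor of carpel and leaf growth, rose by 1.60 (SE 0.15). MSRB6, a methionine sulfoxide reductase, fell by 2.84, from 484, 664 and 792 to 91.6, 87.3 and 86.7. TAPX, the thylakoid ascorbate peroxidase, fell by 2.09, and AOR, a plastid reductase of reactive carbonyls, fell by 2.02. ALPHA-VPE, a vacuolar protease, was at 60.3 ± 12.5, 1249 ± 120 and 325 ± 125 at 0 d, 2 d and 8 d, and its change of -2.02 (SE 0.26) left the 8 d arrays above those of 0 d.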

How the data were processed

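Whole-seedling RNA was hybridised to 9 Affymetrix arrays, 3 each at 0 d, 2 d and 8 d. The deposited table gives 1 linear signal, a fluorescence intensity, per probe set and array. The submitters' processing notes name MAS5. How it was set, and how probe sets were selected for the table, is not given in the sources used here. Probe sets of controls (23) were left out of the tests. Signals were taken to log2 without further scaling and fitted with limma 3.58.1 in R 4.3.3, with 1 mean per group over 9 arrays and Benjamini-Hochberg adjustment over 10343 probe sets. SD is of signals over 3 arrays, and SE is limma's. The test was checked on simulated 8 d and 2 d arrays of 10343 probe sets. It called 48% of 50 changes simulated at a log2 size of 1 and 100% at each of 1.5, 2 and 3, with 0 false calls. Changes simulated at the fold threshold itself fall on both sides of it, so the 48% does not measure sensitivity. Unlike the deposited table, the simulated one was not selected on its own arrays, and nearly all its probe sets were unchanged. The 0 false calls therefore do not carry over to the calls made here.

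Probe sets with exactly 1 annotated gene (5521) were named through the array annotation and the TAIR10.1 gene table, of which 5503 matched. Each gene has its probe set of highest mean. The members, 46 lists by locus (122 of 942 genes measured, 12 lists with none) and 27 families by name were chosen with earlier results of these data known. The text names the 12 largest rises and falls among called genes with non-overlapping arrays and a higher group above the median signal, up to 5 called members of a list, called members against its majority, and uncalled members as values; the plastid neighbourhoods and the genes with a symbol were added after the values were seen. Promoter motifs were not analysed here. The labels state no pairing of replicate numbers, and the numbers were not taken as pairs. Same-numbered arrays of 2 d and 8 d had correlations of their deviations of 0.23, -0.09 and 0.17. These lie on both sides of the 0.1 set as a mark of pairing and do not decide the matter. The number of arrays limits the precision.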

Additional observations from a re-analysis of the deposited data

How the results depend on the processing

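None of the called changes named above was reversed by quantile normalization, by 16 or 64 added to each signal, with array weights or without any single array. Other settings could not reverse a call. Leaving out the dimmest 40%, a trended prior and the 2 d and 8 d arrays alone keep the size of each change. Median and hybridisation-control centring shift all changes alike, their median from 0.26 to 0.16 and 0.14, too little to reverse a change of 1. Of 185 called genes described, 132 kept the call wherever they were tested, and those that lost it had main changes of 1.01 to 2.03 in size. Of 159 described genes that were not called, 31 gained a call under an alternative, among them petL, psbE, GSA1, PORB and EXPA4. Without the dimmest 40% there were 1363 calls, 333 of them higher, and adding 64 gave 493 higher calls, against 2285 and 761. A log2 threshold of 2 gave 310 calls, 79 higher and 231 lower, and no fold threshold gave 7914, 4818 and 3096, so the share of higher calls went from 33.3% to 60.9%. The hypoxia list had 6 calls without the dimmest 40%, where fewer genes were tested, and 6 at a threshold of 2. The photosystem list had 5 calls after quantile normalization and 0 at a threshold of 2, photorespiration and chlorophyll synthesis 1 each, and the plastid genes 0 there and 58 with no fold threshold. Leaving out single arrays gave 2162 to 2607 calls, 11 to 13 in the hypoxia list, 7 to 10 in the photosystem list, 6 to 8 in chlorophyll synthesis and 29 to 34 among plastid genes; photorespiration kept its 4. Centring on hybridisation controls moved the median change of all probe sets from 0.26 to 0.14. With the replicate number as a block the count of calls stayed at 2285. Every group holds each replicate number, so a block cannot move the size of any change, and that count does not bear on pairing. The 8 d replicates 2 and 3 did not correlate best with the 2 d array of their own number. The causes of these shifts were not tested.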

Other observations

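IQD proteins bind calmodulin and link calcium signals to microtubules. Of 10 measured, 3 fell and 1 rose, while 13.7% of named genes were called lower and 7.8% higher. The gene iqd21 read 436, 415 and 460 at 2 d and 53.8, 44.0 and 77.3 at 8 d, a change of -2.94 (SE 0.18), far outside the spread of either group. IQD24 fell by 1.62, and IQD19 fell by 1.09 but was at -0.80 and not called without 8 d replicate 1. IQD22 rose by 1.27 (SE 0.12), from 379, 358 and 378 to 869, 790 and 1048.

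Genes of dehydration and cold did not move as a group. COR47 was the only member called of 4, and the 8 d arrays of COR15A, at 7.05, 105 and 220, were too spread to be told from its 2 d arrays, at 122, 145 and 75.2. BGLU40 and BGLU33, of 8 beta-glucosidases, fell by 2.04 and 1.26, and BGLU45 rose by 2.03 (SE 0.46) from very low signals.

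Some neighbouring genes moved in opposite directions between 2 d and 8 d, and these pairs were picked after the values were seen. AT4G33560 rose by 4.78 (SE 0.35) while the next locus, AT4G33550, read 430, 609 and 867 at 2 d and 86.9, 73.9 and 81.7 at 8 d, a change of -2.92 (SE 0.21). AT1G52050 read 35.6, 63.5 and 77.8 at 2 d and 751, 404 and 741 at 8 d, a rise of 3.44 (SE 0.29). AT1G52100, close by in locus number, read 2224, 3898 and 4872 at 2 d and 416, 412 and 252 at 8 d, a change of -3.31 (SE 0.27). At 0 d the means of these 4 genes were 151, 2759, 846 and 6484, so that AT1G52050 returned at 8 d towards its 0 d level and AT1G52100 did not.

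A set of genes had its lowest level at 2 d and was near or above its 0 d level at 8 d. BGLU45, a beta-glucosidase, read 154, 165 and 166 at 0 d, 69.0, 13.4 and 27.3 at 2 d and 134, 145 and 88.2 at 8 d. COR47 had means of 5259, 2087 and 6065, and BCAT4 of 1438, 908 and 2108. AT1G47400, of the iron list, instead was lower at each time, with means of 1029, 375 and 97.7 and a change from 2 d to 8 d of -2.18 (SE 0.43).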
